A study of Mus musculus with 16 samples.

Results

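The genes described here are 6 members of the aryl hydrocarbon receptor (AHR) pathway, *Ahr*, *Arnt*, *Ahrr*, *Cyp1a1*, *Cyp1b1* and *Tiparp*, chosen by symbol from the 55359 gene identifiers counted in mouse dorsal skin. All 6 were found, and all 6 passed the filter on low counts in every comparison. Whole dorsal skin was taken from 16 wild-type C57Bl/6 mice (C57Bl/6N in the study's results text) aged 8 weeks, whose hair follicles the labels place in the resting phase (telogen). 4 mice made up each of the groups of no-UVB males, no-UVB females, UVB-irradiated males and UVB-irradiated females, and the labels give no transgene or drug in any group. The irradiated mice received 3 exposures to UVB, and their skin was collected 6 h after the last of these, on day 5.

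AHR is a transcription factor of the bHLH-PAS family that waits in the cytoplasm with HSP90 and other chaperones until it binds a ligand. Ligands include dioxin-like pollutants, plant indoles and photoproducts of tryptophan that form under UVB. Bound AHR enters the nucleus, pairs with ARNT and binds xenobiotic response elements near its target genes. *Cyp1a1* and *Cyp1b1* encode cytochrome P450 enzymes that oxidise many AHR ligands, while *Ahrr* and *Tiparp* encode proteins that restrain the receptor. In skin, AHR is known for its part in the barrier, in pigmentation and in resident immune cells.

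Reads on genes numbered 16495776 to 33404831 per mouse, and the members held between 88 and 3341 of them in a mouse, the fewest in *Ahrr*. Markers of keratinocytes and fibroblasts, the main cells of skin, all exceeded 1 CPM (counts-per-million of the reads on genes) in at least 1 mouse of each group. The no-UVB males did not form 1 set. Replicates 1 and 2 stood apart from the other mice in several early response genes, whose values are given with *Tiparp* and *Ahrr*. Replicates 3 and 4 stood apart in markers of the growing (anagen) follicle (*Krt71*, *Krt25*, *Krt27* and *Tchh*, mainly of the inner root sheath, and *Krt35* and *Hoxc13* of the hair shaft). These summed to 92.7 and 142.3 CPM there and to at most 29.45 CPM in the other 14 mice. The labels give telogen for this pair too, and the study reports leaving out animals whose skin had entered anagen. Whether follicles of this pair were growing was not tested. Calls of members that rest on the no-UVB males are given with and without each pair. Where a fitted difference is called, edgeR's quasi-likelihood test gave a Benjamini-Hochberg adjusted p under 0.1 over all genes tested. The labels name no culture, litter or cage, so that p-values measure the spread between these mice. Whether irradiated and no-UVB mice were housed, shaved, anesthetised and processed alike is not given in the sources used here, so UVB and any such difference cannot be told apart.

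In GRCm39, *Ahr* lies at chr12:35547973-35585057, *Arnt* at chr3:95341365-95404551, *Ahrr* at chr13:74359237-74440462, *Cyp1a1* at chr9:57595211-57611107, *Cyp1b1* at chr17:80008966-80022532 and *Tiparp* at chr3:65435320-65463365. Per kilobase of exon, *Ahr* was the most abundant member, at a mean of 14.9 RPKM (CPM divided by the kilobases of exon) over the 16 mice. *Arnt* followed at 9.76, *Cyp1b1* at 9.04, *Cyp1a1* at 9.01, *Tiparp* at 3.48 and *Ahrr*, the repressor, at 0.873 RPKM. The range of *Ahr* over the mice, 11.9 to 18.9 RPKM, lay above that of *Arnt*, 9.03 to 10.4 RPKM. That separation came from dividing by annotated exon length, 6183 bases for *Ahr* and 9346 for *Arnt*. Before that division, *Ahr* and *Arnt* averaged 84.3 and 94.7 CPM in no-UVB males and 95.1 and 87.3 CPM in irradiated males. In no-UVB females they averaged 91.7 and 93.6 CPM, and in irradiated females 98.7 and 89.2 CPM. *Arnt*, *Cyp1b1* (6.01 to 15.5 RPKM) and *Cyp1a1* (4.67 to 14.4 RPKM) overlapped one another, so their order is not separated by the spread between mice, and the lower *Ahr* values overlapped those of both enzymes. The order also changed with the group: *Cyp1b1* averaged 12.05 RPKM in no-UVB females, above *Arnt* (10.02), but 7.38 in no-UVB males and 7.26 in irradiated males, and *Cyp1a1* went from 6.65 in no-UVB females to 12.23 in irradiated ones. *Tiparp* reached 5.78 RPKM and overlapped the lowest *Cyp1a1* values. *Ahrr* stayed at or under 1.27 RPKM, below every *Tiparp* value.

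The sequences before the start sites of *Cyp1a1*, *Cyp1b1* and *Ahrr* are shown because they hold matches to the DNA element that AHR and ARNT bind, and because these genes are the enzymes and the repressor that the pathway controls. They were read from the GRCm39 genome, on the strand of the gene, and capitals mark the core of the xenobiotic response element, GCGTG, or its reverse, CACGC. For both enzymes the 300 bases with the most cores within the 1000 bases before the start of the GENCODE canonical transcript are given, and for *Ahrr* the last 250 bases. The *Cyp1a1* stretch, chr9:57603492-57603791 on the plus strand, lies at positions -650 to -351 from the start and within the span of a longer annotated *Cyp1a1* transcript, outside its exons. The *Cyp1b1* stretch is chr17:80023171-80023470 on the minus strand, at positions -938 to -639. The *Ahrr* stretch is chr13:74440463-74440712 on the minus strand.
Cyp1a1: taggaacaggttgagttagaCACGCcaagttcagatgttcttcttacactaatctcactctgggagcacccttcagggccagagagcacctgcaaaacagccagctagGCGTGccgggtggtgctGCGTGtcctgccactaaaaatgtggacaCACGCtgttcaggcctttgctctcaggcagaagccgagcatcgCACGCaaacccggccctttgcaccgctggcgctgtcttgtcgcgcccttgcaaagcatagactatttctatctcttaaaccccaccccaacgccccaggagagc
Cyp1b1: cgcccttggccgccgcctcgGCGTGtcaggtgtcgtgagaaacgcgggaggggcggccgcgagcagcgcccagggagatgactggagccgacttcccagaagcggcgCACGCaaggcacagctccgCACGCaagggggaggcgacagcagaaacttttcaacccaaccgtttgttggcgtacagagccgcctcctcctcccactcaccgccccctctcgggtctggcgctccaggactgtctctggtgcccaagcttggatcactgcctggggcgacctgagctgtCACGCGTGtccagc
Ahrr: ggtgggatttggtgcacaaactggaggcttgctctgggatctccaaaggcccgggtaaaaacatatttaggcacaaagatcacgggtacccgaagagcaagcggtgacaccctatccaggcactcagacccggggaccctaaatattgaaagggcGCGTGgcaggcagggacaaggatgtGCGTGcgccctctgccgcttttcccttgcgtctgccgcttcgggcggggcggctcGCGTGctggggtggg

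*Cyp1a1* and *Cyp1b1* each held 10 cores in the 1000 bases, and 0.115% of the 21751 genes compared held as many. *Ahrr* held 4 cores, a number reached by 5.72% of genes, and *Tiparp* held 3, reached by 13.0%. The *Arnt* window held 0 cores, while 54.8% of genes held at least 1 and the median gene held 1. Closer in, the last 250 bases held 4 cores in *Cyp1a1*, 3 in *Ahrr*, 3 in *Tiparp* and 1 in *Cyp1b1*, against 31.2% of genes with at least 1. Of the *Cyp1b1* matches, those at positions -652 and -649 overlap each other. These are matches of letters on either strand, with no other motif searched, and say nothing of binding. Sequences were read for 5 of the 6 members.

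*Cyp1a1*, the classical readout of AHR activity, was the member that rose after UVB in both sexes. In no-UVB males it stood at 25.2, 28.3, 25.9 and 24.8 CPM in replicates 1 to 4, and in UVB-irradiated males at 46.3, 30.3, 36.0 and 51.2 CPM. In no-UVB females it stood at 26.6, 31.2, 27.8 and 18.2 CPM, and in UVB-irradiated females at 52.1, 33.4, 49.1 and 56.3 CPM. Every irradiated mouse was above every no-UVB mouse of its sex, although replicate 2 of both irradiated groups was only a little above the highest control. The fitted rise was 1.60-fold in males (95% interval 1.28 to 1.99; log2 difference 0.68, SE 0.143; edgeR adjusted p = 0.00292). It was 1.84-fold in females (95% interval 1.38 to 2.46; log2 difference 0.88, SE 0.186; edgeR adjusted p = 0.0126). Among the genes tested, 8.36% had a larger log2 difference than *Cyp1a1* in males and 2.42% in females. The call held in each of the alternative analyses of either sex.

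**Figure D1:**
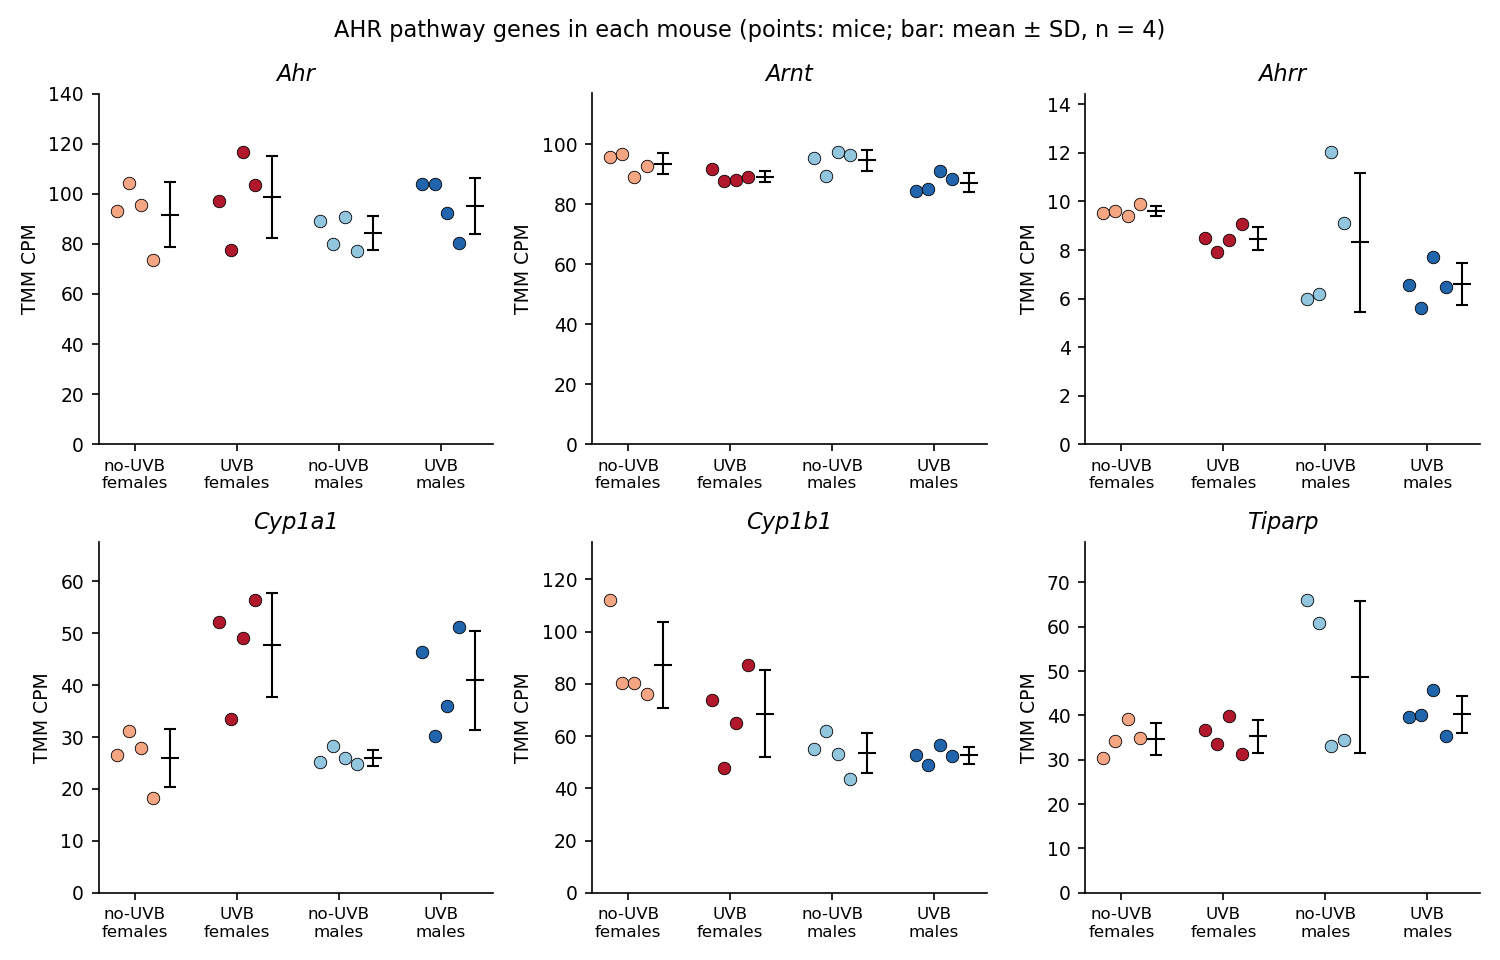
CPM after TMM scaling of the 6 members in each of the 16 mice, by group, with the mean and SD of 4 mice beside the points; every axis starts at 0. *Cyp1a1* lies between 30.3 and 56.3 CPM in the irradiated mice and between 18.2 and 31.2 CPM in the others, *Cyp1b1* is lower in males than in females without UVB, and in *Tiparp* and *Ahrr* the no-UVB males split into pairs.

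Markers of suprabasal keratinocytes, neutrophils and sebocytes moved with *Cyp1a1*. Of the 5 suprabasal markers, 5 rose in males and 4 in females, and their sums did not overlap between irradiated and no-UVB mice of either sex; they are given with the barrier genes. Of 5 neutrophil markers 4 were tested, and 4 rose in males and 2 in females. Their sum was 8.02 to 11.9 CPM in no-UVB males and 50.99 to 157 CPM in irradiated males, and 8.35 to 14.45 and 17.3 to 26.4 CPM in the female groups, with 2 markers under 1 CPM in every no-UVB mouse. Melanocyte markers rose in 3 of 5 genes in males and mast cell markers in 3 of 5 in females, with sums that overlapped between the groups. Other lists fell in males, fibroblast markers in 5 of 6 genes (summed to 79060 to 86270 CPM without UVB and 28380 to 39290 CPM after UVB), skeletal muscle markers in 5 of 5 (14520 to 19300 and 8699 to 11140 CPM), and macrophage and adipocyte markers in 3 of 5 each. In females 1 of 6 fibroblast markers rose and 1 fell, 1 of 5 macrophage markers fell, and none of the skeletal muscle or adipocyte markers passed the test. The sebocyte list holds *Mc5r*, *Awat1*, *Awat2*, *Far2* and *Krt79*, which mark the sebaceous gland and its duct, and 3 of its 5 genes rose in males and 2 in females. The summed CPM of the list was 1354 to 1686 in no-UVB males and 2502 to 2911 in UVB-irradiated males. In females it was 1083 to 2113 without UVB and 1844 to 2491 after UVB, so that the female groups overlapped. *Krt79* and *Far2* make up most of the sum. *Awat2* and *Mc5r* did not pass the test in either sex, with log2 differences of -0.07 and -0.22 in males and 0.15 and 0.38 in females. The 3 genes closest to *Cyp1a1* in log2 CPM over the 16 mice, among 15117 genes compared, were *Pnpla5* (Pearson's r 0.956), *Cyp2j12* (0.942) and *Acox2* (0.938), the last an enzyme of peroxisomal lipid oxidation. After the group means were subtracted these correlations were 0.907, 0.863 and 0.832. The correlation with the summed sebocyte markers was 0.824 over the 16 mice and 0.706 after the group means were subtracted. These are descriptions of libraries that share their tissue and scaling.

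Per 1000 CPM of sebocyte markers, *Cyp1a1* stood at 16.5, 20.9, 15.4 and 14.8 CPM in no-UVB males and at 15.9, 12.1, 13.6 and 19.7 CPM in UVB-irradiated males. The male groups overlapped, with means of 16.9 ± 2.75 and 15.3 ± 3.30 (SD, n = 4 each). In females the same ratio was 13.7, 14.8, 15.5 and 16.8 CPM without UVB and 21.7, 18.1, 19.7 and 23.6 CPM after UVB. The female groups did not overlap, with means of 15.2 ± 1.31 and 20.8 ± 2.37 (SD, n = 4 each). This ratio was chosen after the values had been seen and is given as a description. A permutation test of it was run within each sex, but its p-values are not used, since the same values led to the ratio. The sexes were not tested against each other. Its denominator, mostly *Krt79* and *Far2*, was itself 1.71 times as high in irradiated as in no-UVB males and 1.32 times in females. In whole skin, fewer cells of a type and less RNA per cell cannot be told apart. The part of sebocytes, suprabasal keratinocytes and neutrophils in the rise of *Cyp1a1* was not tested.

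**Figure D2:**
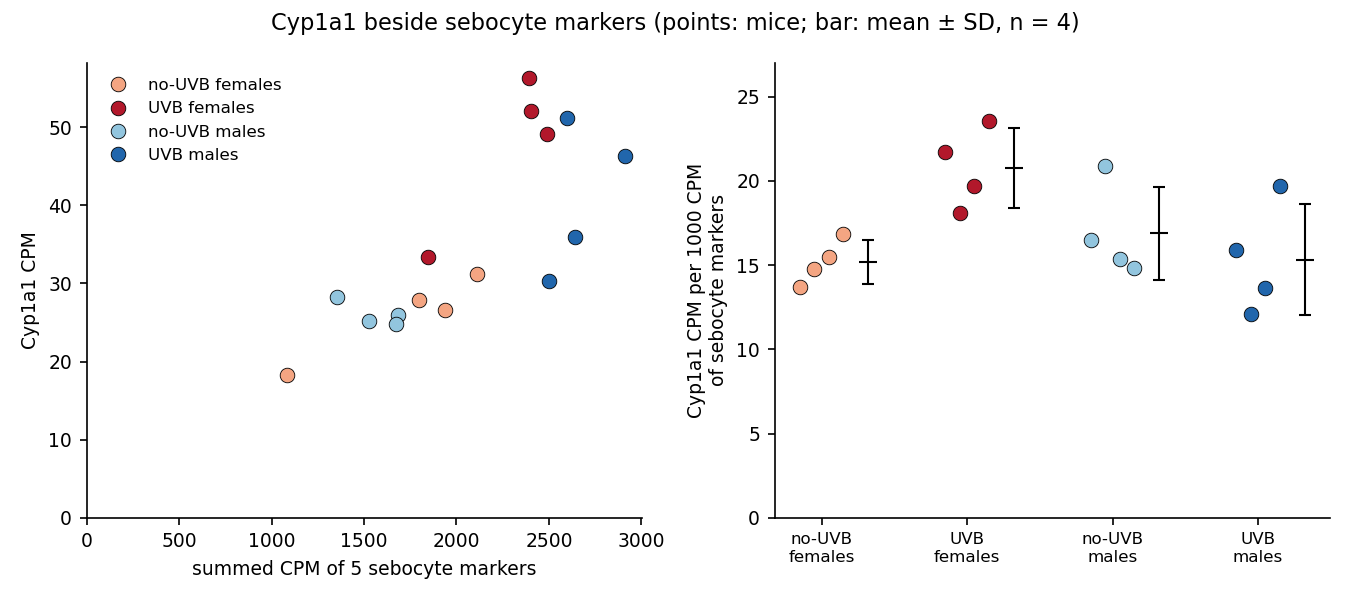
Left, *Cyp1a1* CPM against the summed CPM of the 5 sebocyte markers, 1 point per mouse; right, *Cyp1a1* CPM per 1000 CPM of these markers by group, with the mean and SD of 4 mice. On the right the irradiated females (18.1 to 23.6) lie above the no-UVB females (13.7 to 16.8), while the male groups overlap.

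The receptor itself changed little. *Ahr* measured 89.0, 80.2, 90.8 and 77.1 CPM in no-UVB males and 104, 104, 92.3 and 80.2 CPM in UVB-irradiated males. The groups overlapped, since the lowest irradiated male was below 2 of the controls. The fitted difference was 1.15-fold (95% interval 0.998 to 1.31; log2 difference 0.20, SE 0.0905) and passed the threshold narrowly (edgeR adjusted p = 0.0898). That call was lost without any one of the UVB males replicates 1, 2 or 3 or the no-UVB males replicates 2 or 4, with adjusted p between 0.121 and 0.217. Upper quartile scaling gave an edgeR adjusted p of 0.289 and a single fit over all 16 mice one of 0.255, and leaving out no-UVB males replicates 1 and 2, or 3 and 4, gave 0.184 and 0.139. In females *Ahr* measured 93.0, 105, 95.6 and 73.7 CPM without UVB and 97.1, 77.7, 117 and 104 CPM after UVB. The female groups overlapped almost fully (1.08-fold, 95% interval 0.881 to 1.33, edgeR adjusted p = 0.611).

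*Arnt*, the partner of AHR and of other bHLH-PAS factors, did not pass the test in either sex. In males it measured 95.4, 89.6, 97.5 and 96.3 CPM without UVB and 84.4, 85.0, 91.2 and 88.5 CPM after UVB. The groups overlapped by 1 mouse on each side (0.935-fold, 95% interval 0.863 to 1.01, edgeR adjusted p = 0.147). Under upper quartile scaling the difference was called (log2 -0.17, edgeR adjusted p = 0.0166), and so it was in the single fit over all 16 mice (log2 -0.12, edgeR adjusted p = 0.0593). In females it measured 96.0, 96.7, 89.0 and 92.8 CPM without UVB and 91.8, 87.9, 88.0 and 89.1 CPM after UVB, and the groups overlapped (0.958-fold, 95% interval 0.875 to 1.05, edgeR adjusted p = 0.520).

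*Cyp1b1*, which shares substrates with *Cyp1a1*, did not pass the test after UVB in either sex. In males it measured 54.9, 62.1, 53.0 and 43.5 CPM without UVB and 52.6, 48.9, 56.4 and 52.2 CPM after UVB. The irradiated males lay inside the range of the controls (0.999-fold, 95% interval 0.863 to 1.16, edgeR adjusted p = 0.989). In females it measured 112, 80.3, 80.4 and 76.2 CPM without UVB and 73.9, 47.9, 65.1 and 87.4 CPM after UVB. The female groups overlapped through 1 irradiated mouse (0.790-fold, 95% interval 0.597 to 1.04, edgeR adjusted p = 0.238). Both enzymes carry 10 response element cores in the 1000 bases before their starts, 5 of them in each stretch printed above, and *Cyp1a1* alone of them passed the test. That the enzymes differ in their response was not tested.

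*Ahrr*, the AHR repressor, was lower in every irradiated female than in every no-UVB female without passing the test. It measured 9.53, 9.59, 9.40 and 9.90 CPM in no-UVB females and 8.49, 7.93, 8.40 and 9.07 CPM in UVB-irradiated females. The groups did not overlap, but the difference was small (0.887-fold, 95% interval 0.774 to 1.01, edgeR adjusted p = 0.216), and 10.1% of all genes tested in females were lower with no overlap. In males it measured 5.96, 6.17, 12.04 and 9.12 CPM without UVB and 6.57, 5.62, 7.71 and 6.46 CPM after UVB. The no-UVB males fell into a low pair and a high pair, with the irradiated males at the level of the low one (0.805-fold, 95% interval 0.575 to 1.13, edgeR adjusted p = 0.253). The high pair, replicates 3 and 4, was also the pair with the high anagen follicle markers, which summed to 21.6 and 15.8 CPM in replicates 1 and 2. The part of the anagen follicle markers in the *Ahrr* values was not tested.

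*Tiparp*, an ADP-ribosyltransferase (PARP7) induced by AHR that acts back on it, split the no-UVB males the other way. It measured 65.9, 60.9, 33.2 and 34.5 CPM in no-UVB males and 39.6, 40.0, 45.8 and 35.5 CPM in UVB-irradiated males. Replicates 1 and 2 of the no-UVB males were above every other mouse of the series, and replicates 3 and 4 were below every irradiated male. Over the 8 males the test found no call (0.839-fold, 95% interval 0.573 to 1.23, edgeR adjusted p = 0.403). In females it measured 30.5, 34.3, 39.1 and 34.8 CPM without UVB and 36.7, 33.5, 39.8 and 31.3 CPM after UVB, and the groups overlapped almost fully (1.02-fold, 95% interval 0.879 to 1.19, edgeR adjusted p = 0.854).

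The no-UVB males with high *Tiparp* and low *Ahrr* were also high in early response genes, which were looked up after these values had been seen. *Fos* measured 148 and 250 CPM in no-UVB males replicates 1 and 2, 35.8 and 27.2 CPM in replicates 3 and 4, and 10.5 to 25.5 CPM in the 12 other mice. *Atf3* measured 80.9 and 88.8 CPM in replicates 1 and 2 and 14.5 and 19.4 CPM in replicates 3 and 4, with a highest value of 23.5 CPM in the other groups. *Egr1* measured 150 and 181 CPM in replicates 1 and 2 and 74.3 and 48.8 CPM in replicates 3 and 4, with a highest value of 77.7 CPM elsewhere. *Junb* (72.5 to 101 CPM) and *Ier2* (37.1 to 50.6 CPM) in no-UVB males overlapped the other groups. Over the 16 mice the genes closest to *Tiparp* were the non-coding *Gm20186* (r 0.882), *Fosl2* (0.878), which encodes a partner of JUN proteins, and *Osgin2* (0.852). The correlation of *Tiparp* with *Ahrr* was -0.66 over the 16 mice and -0.75 after the group means were subtracted. The other pair, with low *Tiparp* and high *Ahrr*, was the one high in anagen follicle markers (92.7 and 142.3 CPM). The parts of the early response genes and of the anagen follicle markers in the *Tiparp* and *Ahrr* values were not tested.

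Each pair of no-UVB males was also left out together, alternatives chosen after the data were seen. The choice of the pair fixes the direction of *Tiparp* and *Ahrr*, so these differences are a description with no test. In males the log2 difference of *Tiparp* was 0.28 without replicates 1 and 2 and -0.61 without replicates 3 and 4, and that of *Ahrr* was -0.66 and 0.16. *Cyp1a1* passed the test both without replicates 1 and 2 (log2 0.72, edgeR adjusted p = 0.0259) and without replicates 3 and 4 (log2 0.66, edgeR adjusted p = 0.0330). These fits rest on 2 no-UVB males that are assumed to vary like the other mice.

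**Figure D3:**
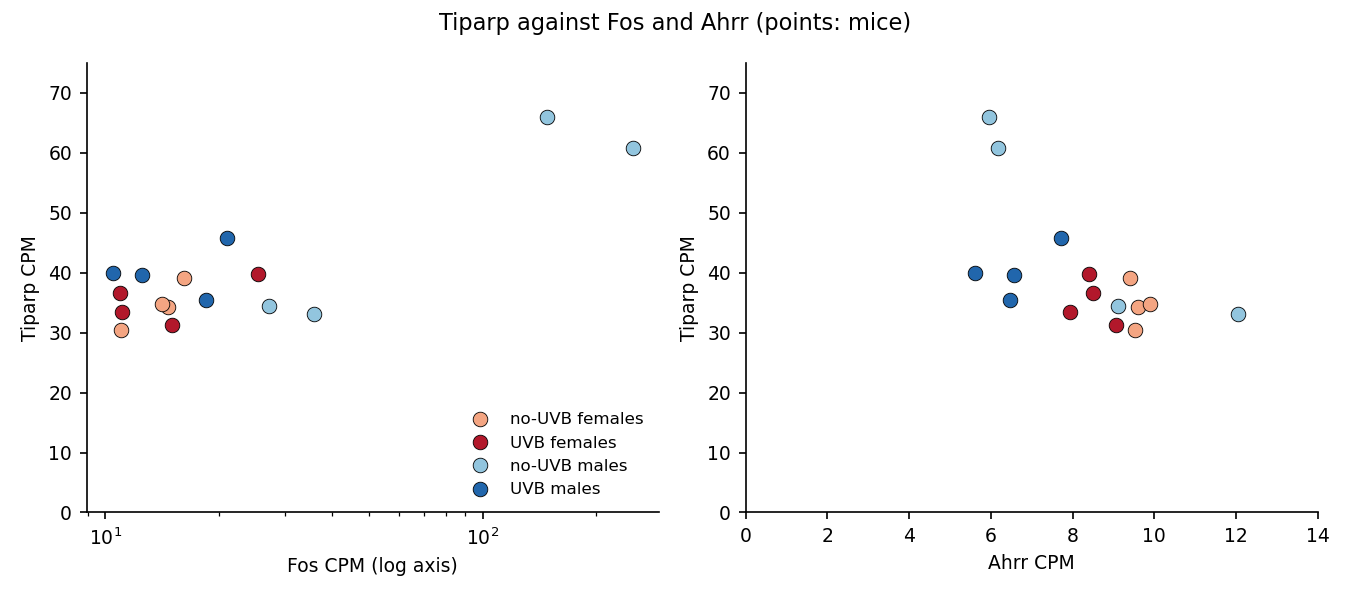
*Tiparp* CPM against *Fos* CPM (left, log axis for *Fos*) and against *Ahrr* CPM (right), 1 point per mouse. The no-UVB males replicates 1 and 2, at 65.9 and 60.9 CPM of *Tiparp*, lie alone at the upper right on the left side and at the upper left on the right side.

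Counted over the members, 2 of 6 were called in males, both higher, and 1 of 6 was called in females, also higher. Of all genes tested, 29% were called higher and 30.5% lower in males, and 12.8% were called higher and 10.6% lower in females. The split moved with the scaling. In males 4802 genes were higher and 5051 lower with TMM, against 3880 and 6130 with upper quartile scaling, and in females the split turned: 2162 genes were higher and 1787 lower with TMM, against 1737 and 2157 with upper quartile scaling. No member passed a log2 fold change of 1, which 7.39% of genes passed in males and 2.71% in females together with the adjusted p. *Cyp1a1* was the 1 member that was higher with no overlap in each sex, as were 22.9% of all genes in males and 11.1% in females. The median log2 difference of the members was -0.05 in males and -0.01 in females, beside -0.02 and 0.0025 over all genes. The 2 of 6 members called higher in males are close to the share of all genes called higher there.

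Whether the response differs between the sexes was tested as an interaction over all 16 mice. None of the 6 members was called, while 7% of all genes were; 3625 of the 17406 genes had an unadjusted p under 0.05, and none of the members was among them. The estimates, male minus female response on the log2 scale, were -0.22 for *Cyp1a1* (95% interval -0.77 to 0.34, edgeR adjusted p = 0.673) and 0.33 for *Cyp1b1* (95% interval -0.15 to 0.80, edgeR adjusted p = 0.433). For *Tiparp* the estimate was -0.30 (95% interval -0.86 to 0.26), and it was 0.22 without no-UVB males replicates 1 and 2 and -0.68 without replicates 3 and 4, which is again fixed by the choice of mice. The intervals leave room for differences in either direction. DESeq2's Wald test also called 0 members.

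The sexes differed in *Cyp1b1*. Without UVB every male, at 43.5 to 62.1 CPM, was below every female, at 76.2 to 112 CPM, and the level in males was 0.612 of that in females (95% interval 0.484 to 0.774; log2 difference -0.71, SE 0.159; edgeR adjusted p = 0.0131). *Cyp1b1* was the 1 member of 6 called in this comparison, beside 11.8% of all genes, and 5.17% of genes were lower in males with no overlap. The call held in the other scalings, filters, tests and single mice left out, and without no-UVB males replicates 1 and 2 (edgeR adjusted p = 0.0428). It was lost without no-UVB males replicates 3 and 4 (log2 difference -0.57, edgeR adjusted p = 0.113). *Tiparp* was 1.40 times as high in no-UVB males as in no-UVB females (95% interval 1.07 to 1.85, edgeR adjusted p = 0.128). That log2 difference was -0.03 without no-UVB males replicates 1 and 2 and 0.87 without replicates 3 and 4, as the choice of mice fixes.

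After UVB none of the 6 members was called between the sexes, beside 25.2% of all genes, with 5577 genes at an unadjusted p under 0.05, *Cyp1b1* among them. *Cyp1b1* in UVB-irradiated males was 0.767 of the level in irradiated females (95% interval 0.607 to 0.971, edgeR adjusted p = 0.111). It was called by DESeq2 (adjusted p = 0.0996), with upper quartile scaling (edgeR adjusted p = 0.0821) and without UVB females replicate 2 (edgeR adjusted p = 0.0237) or no-UVB females replicate 1 (edgeR adjusted p = 0.0729). *Ahrr* in the irradiated males, 5.62 to 7.71 CPM, was below that in every irradiated female, 7.93 to 9.07 CPM (0.780 of the level, 95% interval 0.605 to 1.01, edgeR adjusted p = 0.165), as were 9.76% of all genes with no overlap. It was called without no-UVB males replicate 3 (edgeR adjusted p = 0.0637), and without either pair of no-UVB males (edgeR adjusted p = 0.0397 without replicates 1 and 2 and 0.0227 without 3 and 4), although none of these mice is in the groups compared and they enter through the shared estimate of the spread. *Cyp1a1* did not separate the sexes, at 1.001 of the female level without UVB (95% interval 0.761 to 1.32) and 0.861 after UVB (95% interval 0.658 to 1.13).

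Several marker lists moved with sex beside *Cyp1b1*. Fibroblast markers summed to 79060 to 86270 CPM in no-UVB males against 19200 to 20540 CPM in no-UVB females, and 4 of their 6 genes were higher in males, opposite in direction to *Cyp1b1*. Lower in no-UVB males were 3 of 5 mast cell markers (summed to 188 to 240 CPM, against 245 to 372 CPM in no-UVB females) and 2 of 5 epidermal T cell markers (33.9 to 43.3 against 43.3 to 63.9 CPM), with every marker of both lists detected in each group. Of 5 melanocyte markers 2 were lower in no-UVB males and 1 was higher (summed to 24.2 to 33.6 against 29.6 to 97.5 CPM). Of the anagen follicle markers the inner root sheath keratins *Krt71* and *Krt27* were higher in no-UVB males (edgeR adjusted p = 0.0282 and 0.0418), through replicates 3 and 4. Skeletal muscle markers were higher in no-UVB males in 3 of 5 genes (summed to 14520 to 19300 against 9422 to 13800 CPM), opposite in direction to *Cyp1b1*, and 1 of 5 mural cell markers was higher and 1 of 5 endothelial markers lower. The part of these cells in the *Cyp1b1* difference was not tested. The genes closest to *Cyp1b1* over the 16 mice were *Rfx5* (r 0.921), a regulator of MHC class II genes, *Leng8* (0.913) and *Papolg* (0.879).

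**Figure D4:**
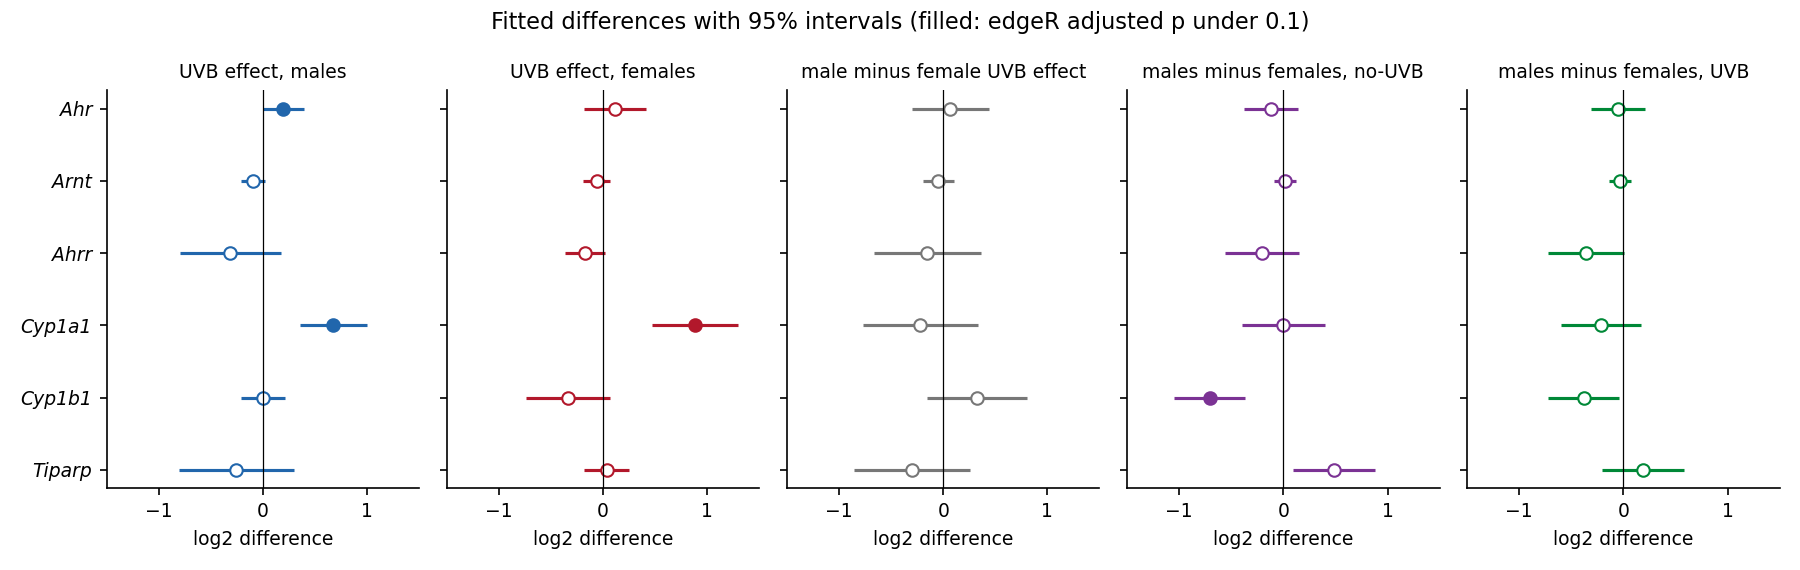
Fitted log2 differences of the 6 members with 95% intervals in 5 comparisons, filled where the edgeR adjusted p is under 0.1. *Cyp1a1* is filled for both UVB effects (0.68 in males, 0.88 in females), *Ahr* for males (0.20), and *Cyp1b1* for males minus females without UVB (-0.71).

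Beyond the members, 60 genes of 5 lists around the pathway were followed, of which 53 were tested in males and 52 in females. In males 24 rose and 12 fell, and in females 9 rose and 6 fell, beside the 29% and 30.5% of all genes in males and the 12.8% and 10.6% in females. The median log2 difference was 0.18 in males and 0.09 in females.

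Genes of the epidermal barrier that have been linked to AHR had the highest medians of the 5 lists. Of 7 such genes 6 rose in males and 5 in females, beside 29% and 12.8% of all genes, with medians of 1.39 and 0.77 on the log2 scale. Filaggrin, *Flg*, which binds keratin filaments in the granular layer, went from 57.5 to 82.3 CPM in no-UVB males to 685 to 1293 CPM in UVB-irradiated males (log2 difference 3.86, SE 0.208, edgeR adjusted p = 1.67e-06). In females it went from 67.0 to 100.2 CPM to 286 to 794 CPM (log2 difference 2.88, SE 0.297, edgeR adjusted p = 0.000386). The groups of each sex lay far apart.

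The filaggrin-like gene *Hrnr* rose by 2.69 in males and 2.30 in females on the log2 scale. *Ivl*, involucrin of the cornified envelope, rose by 2.14 and 1.41, and *Tgm1*, the transglutaminase that crosslinks this envelope, by 1.39 and 0.77. *Ovol1*, a transcription factor of keratinocyte differentiation, rose by 1.08 and 0.61. *Loricrin*, the most abundant gene of the list, rose in males by 0.29 (log2), narrowly within the threshold (edgeR adjusted p = 0.0989), and did not pass in females (0.23, edgeR adjusted p = 0.306). *Flg2* did not pass in either sex, at -0.15 and -0.05. *Ivl* was the 1 gene of the list called for the interaction (male minus female response 0.71 on the log2 scale, SE 0.220, edgeR adjusted p = 0.0901). Markers of suprabasal keratinocytes moved with this list, 5 of 5 upward in males and 4 of 5 in females. Their summed level was 5980 to 8819 CPM in no-UVB males and 17580 to 23500 CPM in UVB-irradiated males, and 5372 to 8101 and 9902 to 13120 CPM in the female groups. Their part in the barrier result was not tested.

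Other known targets of AHR had median log2 differences of 0.20 in males and 0.09 in females, beside -0.02 and 0.0025 over all genes. Of 14, 13 were tested in males, where 6 rose and 1 fell, and 12 in females, where 1 rose, beside 29% of all genes higher and 30.5% lower in males and 12.8% higher in females. *Nfe2l2*, the master regulator of the antioxidant response, rose in both sexes, by 0.37 in males (edgeR adjusted p = 0.00109) and 0.23 in females (edgeR adjusted p = 0.0738). *Gsta1*, a glutathione transferase, rose in males from a low level of 0.230 to 0.287 CPM to 1.10 to 1.79 CPM (log2 difference 2.40, edgeR adjusted p = 3.44e-05), and had too few counts to be tested in females. *Xdh*, xanthine dehydrogenase and the most abundant of the list, did not pass, at log2 differences of -0.05 in males and 0.05 in females. The textbook target *Nqo1* did not pass either, at 0.20 in males and 0.17 in females, nor did *Aldh3a1*, at 0.14 and 0.35. *Serpinb2*, *Ugt1a6a*, *Hes1* and *Cyp2s1* did rise in males, by 0.75, 0.51, 0.50 and 0.46 on the log2 scale. *Socs2* was the gene that fell there (log2 difference -0.48). None of these genes passed in females. *Cyp1a2*, the sister gene of *Cyp1a1*, had too few counts to be tested.

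Of 11 genes of the receptor's complex, 5 rose and 4 fell in males, and 1 rose and 2 fell in females, beside the same shares of all genes. *Hsp90ab1*, an HSP90 gene and the most abundant of them, measured 1157 to 1256 CPM in no-UVB males and 1343 to 1506 CPM after UVB (log2 difference 0.26, edgeR adjusted p = 0.0129), and did not pass in females (log2 difference 0.16, edgeR adjusted p = 0.387). The other HSP90 gene of the list, *Hsp90aa1*, named after its values were seen, rose in both sexes. Its log2 difference was 0.52 in males (edgeR adjusted p = 0.00013) and 0.42 in females (edgeR adjusted p = 0.0996). The alternative partner *Arnt2*, named after its values were seen, fell in males (log2 difference -0.94, edgeR adjusted p = 0.000299) and in females (log2 difference -0.60, edgeR adjusted p = 0.00852). *Cul4b*, of the ubiquitin ligase in which AHR takes part, was the 1 gene of this list called for the interaction (0.39 on the log2 scale, edgeR adjusted p = 0.0176).

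Of 16 genes that lead from tryptophan to AHR ligands, 13 were tested. In males 4 rose and 4 fell, and in females 1 rose and 3 fell. The male counts are near the shares of all genes (29% and 30.5%), while 10.6% of all genes fell in females. *Slc3a2*, the heavy chain of the amino acid transporter and the most abundant of the list, rose in males by 0.29 (edgeR adjusted p = 0.00526) and did not pass in females (0.23, edgeR adjusted p = 0.179). Its light chain *Slc7a5*, named after its values were seen, rose in both sexes, by 0.85 and 0.89 on the log2 scale. *Kmo* and *Kynu* of the same list, also named after their values were seen, fell in both sexes. The log2 difference of *Kmo* was -0.46 in males and -0.55 in females (edgeR adjusted p = 0.0231 and 0.0143). That of *Kynu* was -0.88 and -0.79 (edgeR adjusted p = 0.0298 and 0.0213). *Tdo2*, which opens the kynurenine route, fell in males (log2 difference -1.21, edgeR adjusted p = 0.0420) and did not pass in females (log2 difference 0.96, edgeR adjusted p = 0.431), and it stood at 0.0793 to 1.31 CPM in no-UVB females against 3.86 to 16.03 CPM in no-UVB males. *Ido1* and *Ido2*, which catalyse the same step, had too few counts to be tested.

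Of 12 other bHLH-PAS factors 9 were tested, and 3 rose and 3 fell in males while 1 rose and 1 fell in females, all near the shares of all genes. *Epas1*, the most abundant, did not pass in either sex, at log2 differences of 0.01 in males and 0.21 in females. *Npas4*, at 0.506 to 0.792 CPM in no-UVB males, was the largest fall in males among the 9 tested genes (log2 difference -1.59, edgeR adjusted p = 0.0182), on at most 17 counts per male. *Clock* was the 1 gene of this list called for the interaction (0.44 on the log2 scale, edgeR adjusted p = 0.0891).

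**Figure D5:**
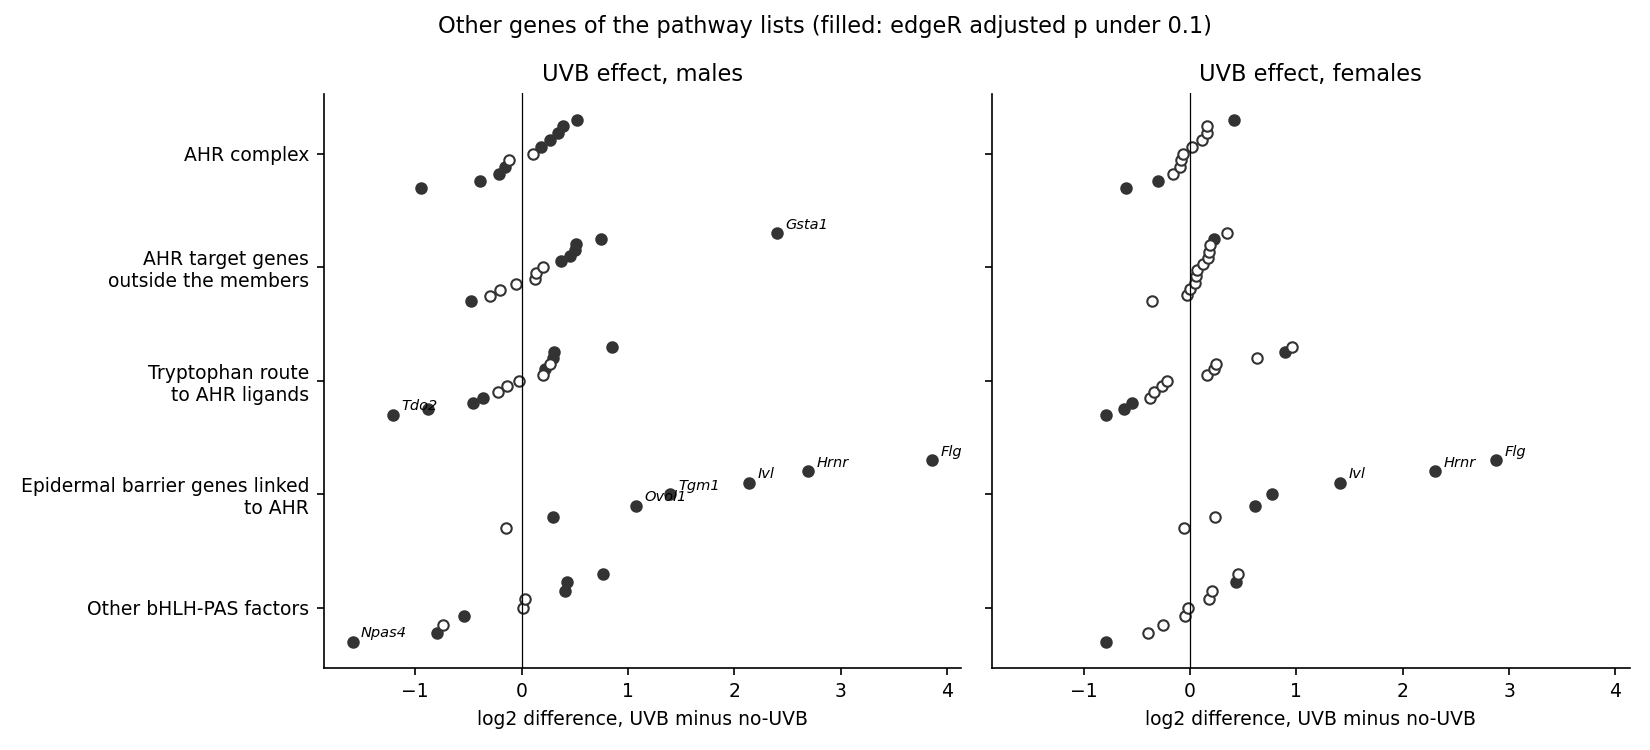
Log2 difference between UVB-irradiated and no-UVB mice for each tested gene of the 5 lists, males left and females right, filled where the edgeR adjusted p is under 0.1 and named where the log2 difference also passes 1. The barrier genes reach 3.86 in males and 2.88 in females (*Flg*), while most genes of the other lists lie within 1 of no difference.

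In males, markers of Langerhans cells, a resident immune cell in which AHR is abundant, fell in 5 of 5 genes after UVB, from a summed 2184 to 2823 CPM to 1359 to 1849 CPM. In females their sums were 2397 to 3555 CPM without UVB and 2291 to 2971 CPM after UVB, and their edgeR adjusted p was 0.113 to 0.690. The sum is mostly the MHC class II genes *Cd74*, *H2-Aa* and *H2-Eb1*, which other antigen-presenting cells share and which averaged 1243, 739 and 561 CPM in no-UVB males. *Cd207* (langerin), the defining marker, went from 22.6 to 13.3 CPM in males (log2 difference -0.74, edgeR adjusted p = 0.00705), and the last of the list is *Itgax*. Epidermal T cell markers fell in 5 of 5 genes in males, from a summed 33.9 to 43.3 CPM to 19.2 to 26.0 CPM, and in 4 of 5 in females. *Ahr* was not lower after UVB in either sex, and their part in its values was not tested. The genes closest to *Ahr* over the 16 mice were *Ankrd11* (r 0.860), *Acp3* (0.855) and *Spint2* (0.851). Those closest to *Arnt* were *Hoxb4* (0.931), *Ror1* (0.901) and *Trim66* (0.890), and those closest to *Ahrr* were *S100pbp* (0.874), *Zfp382* (0.864) and *Vps37d* (0.863).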

How the data were processed

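Poly(A) RNA from whole dorsal skin was sequenced by the authors with a directional kit from 500 ng of total RNA. The authors aligned reads to GRCm39 with STAR and deposited gene counts per mouse, in whole numbers without normalization. The count of the strand made by the kit was used, and names came from GENCODE M39, which matched 54749 of 55359 identifiers. Multimapping reads were not counted, and at most 2.31% of the reads of a member lay on the opposite strand.

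Counts were analysed with edgeR 4.0.16 in R 4.3.3, with filterByExpr, TMM scaling and the robust quasi-likelihood test, in the 8 mice of each sex for UVB and in all 16 mice for sex and interaction. Benjamini-Hochberg adjustment ran over all genes. The methods of the study give an adjusted p of 0.1 together with a shrunken log fold change above 1. The calls here use the adjusted p alone. DESeq2 1.42.0 was an alternative. RPKM used the summed exon length of a gene, and likeness was taken on log2 CPM (prior count 2). The procedure was tested on simulated data in which the changed genes moved by more than any member did here. That run therefore does not bear on changes of the members' size. Libraries of a group differed beyond sampling noise (chi-square per degree of freedom 9.54 to 98.3). Depth limits *Ahrr* most, and intervals of ratios cover the spread between mice.

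The members and lists were chosen with earlier results of these data known. Named genes are the members, pathway genes called with a log2 difference past 1 after UVB in either sex, the most abundant gene of each list, and the 3 genes closest to each member; other genes named in the text were chosen after their values were seen. Alternatives were other scalings, filters and strand counts, the replicate number as a block, a single fit, and leaving out mice. *Arnt* overlaps a pseudogene on its strand, so its counts may hold a few of those reads.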

Additional observations from a re-analysis of the deposited data

Results flagged for a closer look

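In 1 of 24 sets of 4 mice, 1 mouse stood far from the others: *Cyp1b1* in no-UVB females replicate 1 measured 111.9 CPM, against 76.2 to 80.4 CPM in replicates 2 to 4. Its gap to the nearest mouse, as a share of the range of the group, exceeded Dixon's 95% critical value. Chance flags about 1 in 20 such groups. The same mouse stood at 97.5 CPM of summed melanocyte markers, against 29.6 to 38.2 CPM in the other no-UVB females, and at 372 CPM of mast cell markers, against 244.5 to 281.7 CPM; their part was not tested. Without this mouse *Cyp1b1* was still called lower in no-UVB males than in no-UVB females.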

How the results depend on the processing

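In both sexes the rise of *Cyp1a1* passed the test under every alternative run. The lower *Cyp1b1* in no-UVB males passed under all but 1, without no-UVB males replicates 3 and 4. The interaction called 0 members except without that pair (1, *Tiparp*). With mice left out in turn, the members called numbered 1 to 2 in males, 1 in females, 1 to 3 between the sexes without UVB, and 0 to 1 after UVB, and the other pathway genes called numbered 31 to 36 in males and 12 to 17 in females. The count in males was 1 without UVB males replicates 1, 2 or 3 or no-UVB males replicates 2 or 4, where *Ahr* was lost. Without no-UVB males replicates 1 and 2 it was 3, with 24 pathway genes against 36; calls of *Tiparp* and *Ahrr* without either pair are fixed by the choice of mice and test nothing. Between the sexes without UVB it was 2 by DESeq2 and without no-UVB males replicate 4 (*Tiparp* added) and 3 without no-UVB males replicate 3 (*Ahrr* and *Tiparp* added), and 2 without replicates 3 and 4 (*Ahrr* and *Tiparp*, *Cyp1b1* lost). After UVB it was 1 with upper quartile scaling, with DESeq2, without UVB females replicate 2, no-UVB females replicate 1 or no-UVB males replicate 3, and without either pair of no-UVB males.

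Log2 differences of members that had not passed the test changed sign as follows. For *Cyp1b1* in males the values were 0.0076 with RLE factors, 0.0077 with DESeq2, 0.019 with every gene of at least 1 count, 0.0082 with the replicate block, 0.15 without no-UVB males replicates 1 and 2, and -0.088 to 0.087 with mice left out in turn. For *Cyp1a1* between the sexes without UVB they were -0.0082 with RLE factors and with every counted gene, -0.020 with upper quartile scaling, -0.0064 with DESeq2, -0.0068 with at least 10 counts in every mouse, -0.0054 without regard to strand, -0.0035 with the replicate block, -0.034 without no-UVB males replicates 1 and 2, and -0.15 to 0.081 with mice left out. Upper quartile scaling gave -0.0047 for *Tiparp* in females and -0.0049 for *Arnt* between the sexes without UVB, and leaving out mice gave -0.029 to 0.098 and -0.019 to 0.044. Leaving out mice gave -0.031 to 0.18 for the interaction of *Ahr*, -0.29 to 0.086 for that of *Ahrr*, and -0.15 to 0.036 for *Ahr* between the sexes after UVB. Without no-UVB males replicates 1 and 2, *Tiparp* was 0.28 in males, 0.22 in the interaction and -0.033 between the sexes, where *Ahrr* was 0.15. Without replicates 3 and 4, *Ahrr* was 0.16 in males and 0.30 in the interaction, and *Arnt* -0.015 between the sexes without UVB. The cause was not tested.

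The replicate numbers did not pair the mice (correlations of deviations -0.096 to 0.059 in males and -0.18 to 0.31 in females), and the replicate block changed no call of a member. Over all genes the interaction called 478 higher and 740 lower with TMM, 687 and 641 with RLE factors, 1102 and 938 with DESeq2, 229 and 495 with every gene of at least 1 count, 63 and 115 without no-UVB males replicates 1 and 2, 832 and 1036 without replicates 3 and 4, and, over single mice left out, as few as 163 and 298 (without UVB males replicate 1). Without UVB 1255 genes were higher and 797 lower in males, against 762 and 430 without no-UVB males replicate 2 and 594 and 243 without replicates 1 and 2. After UVB the sexes differed in 2222 genes higher and 2169 lower in males with TMM, against 1659 and 2736 with upper quartile scaling and 1322 and 1469 without UVB females replicate 1.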
